A study of Homo sapiens with 5 samples.

Results

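The 45 genes described here hold a carcinoma cell in its epithelial or mesenchymal state: cadherins, the adhesion molecule EPCAM, tight junction and desmosome proteins, catenins, keratins, epithelial regulators, mesenchymal markers and transcription factors, and 10 integrin subunits. They were chosen by symbol, as the rows of the deposited gene table that carry a listed name, and all 45 were found among 28442 gene rows. The list was drawn up with earlier results of these data known, so shares of members set beside shares of all genes are descriptive. The RNA came from TOV21G, a human cell line of ovarian clear cell carcinoma, in a series whose title ties ARID1A-mutated ovarian cancers to HDAC6, an enzyme of the cytoplasm that removes acetyl groups from tubulin and other proteins. The groups were TOV21G cells with a hairpin against HDAC6 (shHDAC6), cells given the HDAC6 inhibitor ACY1215, cells given the HDAC6 inhibitor CAY10603, cells with a control hairpin (shControl) and cells given the drug vehicle. There was 1 library for each treatment. All groups share 1 cell line grown in serum, hairpin cells went through puromycin selection, and the doses, the times and which of a pair of HDAC6 hairpins was used are unknown from the sources used here.

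Epithelial cells hold to each other through adherens junctions, in which a cadherin binds catenins inside the cell, through tight junctions built on claudins and occludin, and through desmosomes, which tie the membrane to keratin filaments. Integrins are pairs of an alpha and a beta subunit that hold cells to the matrix around them. In a shift towards a mesenchymal state, factors of the ZEB, SNAI and TWIST families hold down E-cadherin and other epithelial genes, and cells come to carry N-cadherin and the intermediate filament vimentin. Carcinoma lines can sit between these states.

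The libraries held 43498805 (vehicle) to 57442767 (shControl) counts in total. Levels of 1 gene between libraries are given as CPM, counts scaled to the size and composition of each library, and levels of different genes are compared only as the authors' FPKM, which divides by transcript length. HDAC6 itself was at 29.3 CPM in shHDAC6, against 49.0 CPM in shControl (log2 fold -0.74), and at 32.9 CPM in ACY1215 and 47.9 CPM in CAY10603, against 50.1 CPM in vehicle. Summed over 10 leukocyte markers the level was 3.33, 4.89 and 5.96 CPM in shHDAC6, ACY1215 and CAY10603, against 2.41 and 4.49 CPM in shControl and vehicle, with CD3D and NKG7 at 0 in every library, and 7 endothelial markers stayed under 1 CPM in sum. Of the clear cell carcinoma markers, PAX8 was detected throughout, at 144 CPM in ACY1215 against 118 CPM in vehicle, while NAPSA was under 1 CPM.

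By level, the bulk RNA of TOV21G held transcripts of genes of both states. Whether single cells carried both cannot be told from bulk RNA. VIM, the gene of vimentin and the mesenchymal filament, averaged 1099 ± 159.8 FPKM over the libraries (SD, n = 5 different treatments), rank 75 among the 28442 gene rows. The simple-epithelial keratin KRT18 averaged 193 ± 22.4 FPKM and its partner KRT8 52.3 ± 8.03 FPKM, so keratin mRNA stood below vimentin mRNA in every library, at a VIM to KRT18 ratio of 5.02 to 6.65. The tight junction protein CLDN1 averaged 176 ± 54.5 FPKM, and EPCAM 33.1 ± 10.4 FPKM. The 5 members with the highest mean FPKM were ITGB1 (1580.1), VIM, CTNNB1 (237), ITGAV (224) and KRT18, that is a pair of integrin subunits, 2 filament genes and beta-catenin.

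The cadherin that defines epithelia was nearly missing from the RNA. CDH1, the gene of E-cadherin, gave only 39 counts in shHDAC6, 48 in shControl, 71 in ACY1215, 35 in CAY10603 and 23 in vehicle, or 0.182 FPKM on average. CDH2, the gene of N-cadherin, was low too but higher than CDH1 in every library, at 1.73 FPKM in ACY1215 and 1.35 FPKM in CAY10603, against 1.14 FPKM in vehicle, and at 1.30 FPKM in shHDAC6, against 1.13 FPKM in shControl. CDH6, a cadherin first known from kidney, reached 2.44 CPM in ACY1215 and 1.38 CPM in CAY10603, against 1.89 CPM in vehicle, and 1.66 CPM in shHDAC6, against 1.49 CPM in shControl. CDH11, a mesenchymal cadherin, had 4 counts in shHDAC6, 3 in shControl, 6 in ACY1215, 8 in CAY10603 and 3 in vehicle. The N-cadherin to E-cadherin ratio of FPKM was 5.95 to 9.5, and both terms are so low that no cadherin of the 4 exceeded 2 FPKM in any library.

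The transcription factors that drive the mesenchymal state were uneven. ZEB1, which represses E-cadherin, was the highest of them at 36.7 ± 3.99 FPKM, while TWIST1 averaged 3.25 FPKM and the related repressor ZEB2 0.934 FPKM. Between libraries, ZEB2 was at 2.72 CPM in shHDAC6, against 4.34 CPM in shControl, and at 3.90 CPM in ACY1215 and 3.66 CPM in CAY10603, against 4.25 CPM in vehicle. SNAI1 gave 10 counts in shHDAC6, 8 in shControl, 16 in ACY1215, 8 in CAY10603 and 4 in vehicle. SNAI2 gave 1 count in shHDAC6, 0 in shControl, 2 in ACY1215, 0 in CAY10603 and 8 in vehicle. These 2 SNAI genes were therefore near the counting floor everywhere, and no fold between libraries is given for them. On the epithelial side, the splicing regulator ESRP1 had at most 8 counts in a library and the transcription factor GRHL2 at most 34, whereas ESRP2 was at 4.51 CPM in ACY1215 against 2.93 CPM in vehicle, and at 4.73 CPM in shHDAC6 against 5.87 CPM in shControl.

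**Figure D1:**
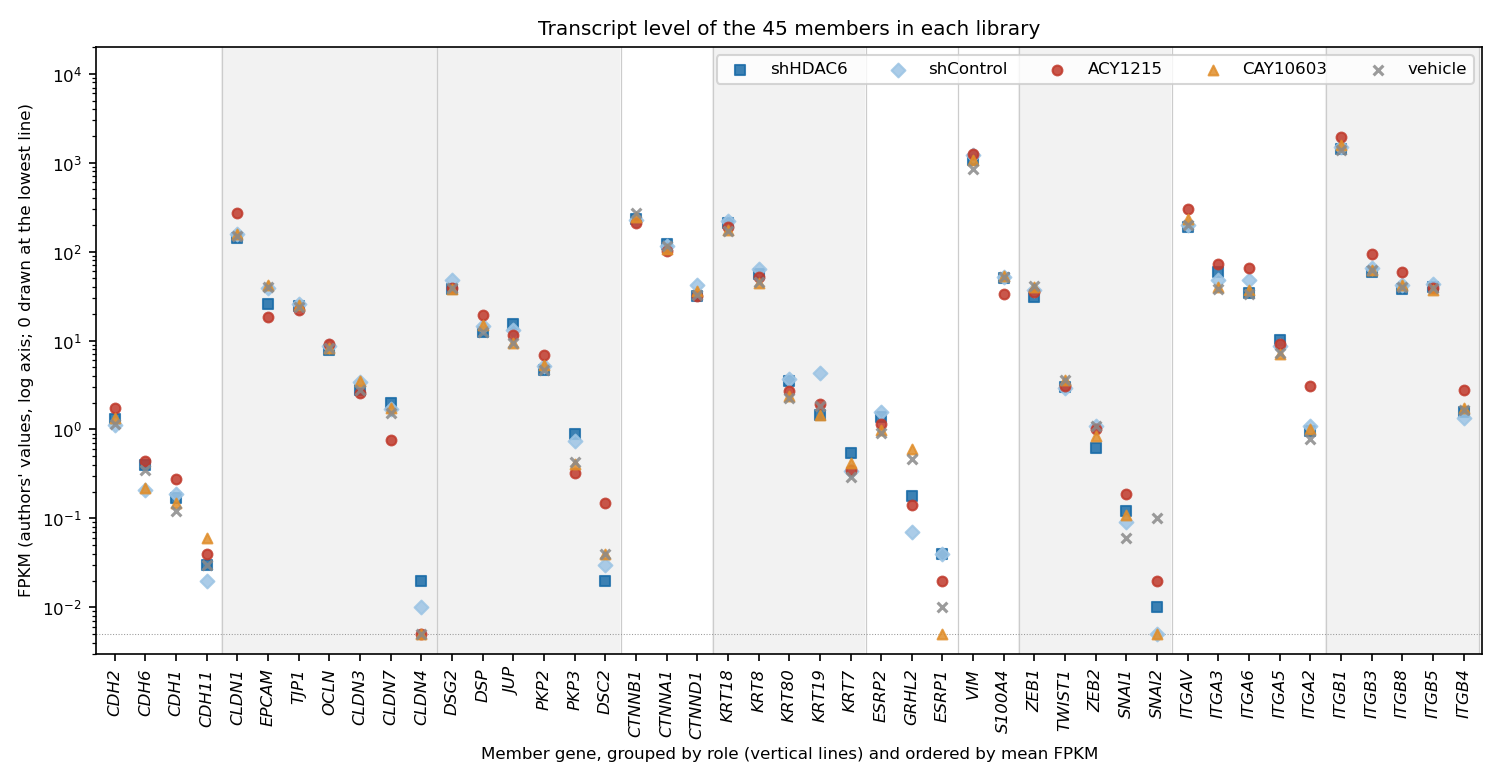
The authors' FPKM (log axis, 0 drawn at the lowest line) of the 45 members in each of the 5 libraries, grouped by role, with 1 point per library. ITGB1, VIM, CTNNB1, ITGAV and KRT18 lie highest, CDH1 lies below CDH2 in every library, and CLDN4, ESRP1, SNAI2, CDH11 and DSC2 lie near the bottom.

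Of the 45 members, 28 averaged 5 CPM or more across the libraries and were used for folds between single libraries. The other 17 were CDH1, CDH6, CDH11, CLDN3, CLDN4, CLDN7, DSC2, PKP3, KRT7, KRT19, ESRP1, ESRP2, GRHL2, ZEB2, SNAI1, SNAI2 and TWIST1, the last of them at 4.83 CPM on average. Of the 28, CDH2, at 5.12 CPM on average, reached the floor only through its 6.80 CPM in ACY1215. Its counts as higher in ACY1215 are therefore not independent of the floor. Each pair sets 1 library against 1, so its folds have no test and no replicate check. A gene is counted as higher or lower when it is at least 1.5-fold from its control, and the share of all 10740 genes at the same level that did so is given with the counts. In such bulk RNA, fewer cells of a type and less RNA per cell cannot be told apart.

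Of the 3 intervention pairs, ACY1215 against vehicle had the most members at least 1.5-fold apart, and most of these were integrins. All 10 integrin subunits had a log2 fold above 0 in ACY1215, where 51.7% of all genes did, and 8 of the 10 were at least 1.5-fold higher, where 6.3% of all genes were. None of the 10 was at least 1.5-fold lower, against 7.39% of all genes. The median log2 fold of the integrins was 0.73, against 0.02 over all genes. Summed over the 10 subunits, the level was 2618 FPKM in ACY1215 and 2054 FPKM in CAY10603, against 1828 FPKM in vehicle, and 1868 FPKM in shHDAC6, against 1951 FPKM in shControl.

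ITGA2, the alpha subunit of a collagen receptor, differed most, with 24.5 CPM in ACY1215 and 7.75 CPM in CAY10603, against 5.64 CPM in vehicle, and 7.26 CPM in shHDAC6, against 8.55 CPM in shControl. The ACY1215 library was the highest of the 5 and the vehicle library the lowest, a log2 fold of 2.11 between them (95% counting interval 1.92 to 2.32), or 4.32-fold. ITGA6, the alpha subunit of laminin receptors, stood at 232 CPM in ACY1215 and 119.6 CPM in CAY10603, against 104 CPM in vehicle, and 115 CPM in shHDAC6, against 157 CPM in shControl, a log2 fold over vehicle of 1.16 (95% counting interval 1.11 to 1.21). ITGA3, another laminin-binding subunit, measured 369.6 CPM in ACY1215 and 194 CPM in CAY10603, against 175 CPM in vehicle, and 285 CPM in shHDAC6, against 236 CPM in shControl, with a log2 fold over vehicle of 1.08 (95% counting interval 1.04 to 1.11). All 3 were at least 2-fold higher in ACY1215 than in vehicle, a difference that 1.72% of all genes had. No other member of the 28 above the floor was that far apart in that pair, but CLDN1 (1.994-fold) and EPCAM (0.503-fold) came just short. ITGAV, the alpha subunit of vitronectin and fibronectin receptors, was at 2087 CPM in ACY1215 and 1529 CPM in CAY10603, against 1263 CPM in vehicle, and 1240.4 CPM in shHDAC6, against 1345 CPM in shControl (log2 fold over vehicle 0.72, 95% counting interval 0.71 to 0.74). ITGA5, the alpha subunit of the classical fibronectin receptor, did not reach 1.5-fold, with 38.8 CPM in ACY1215 and 28.4 CPM in CAY10603 against 28.2 CPM in vehicle.

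Among the beta subunits, ITGB4, the partner of ITGA6 in hemidesmosomes, had 12.1 CPM in ACY1215 and 6.70 CPM in CAY10603, against 6.78 CPM in vehicle, and 6.21 CPM in shHDAC6, against 5.87 CPM in shControl. Only the ACY1215 library stood apart, at a log2 fold over vehicle of 0.84 (95% counting interval 0.64 to 1.04). ITGB1, the beta subunit shared by most matrix receptors and the highest member of all, read 7506 CPM in ACY1215 and 5889 CPM in CAY10603, against 4944 CPM in vehicle, and 5205 CPM in shHDAC6, against 5589.5 CPM in shControl, just past 1.5-fold over vehicle at a log2 fold of 0.60. ITGB3, the vitronectin receptor subunit, was at 460.4 CPM in ACY1215 and 292 CPM in CAY10603, against 278 CPM in vehicle, and 268 CPM in shHDAC6, against 311 CPM in shControl. Its log2 fold over vehicle was 0.73 (95% counting interval 0.70 to 0.76), close to that of ITGAV, its partner. For ITGB1 and ITGB3 alike, ACY1215 was the highest library and the other 4 lay closer together. ITGB8, whose pair with ITGAV activates latent TGF-beta, had 531 CPM in ACY1215 and 363 CPM in CAY10603, against 327 CPM in vehicle, and 325 CPM in shHDAC6, against 367 CPM in shControl, with a log2 fold over vehicle of 0.70 (95% counting interval 0.67 to 0.73). ITGB5, which also pairs with ITGAV, was the subunit that differed least, with 129 CPM in ACY1215 and 118 CPM in CAY10603 against 119.8 CPM in vehicle. Per length, the ITGB5 to ITGAV ratio was therefore 0.128 in ACY1215 and 0.161 in CAY10603, against 0.198 in vehicle, while the ITGB3 to ITGAV ratio was 0.314 in ACY1215 and 0.272 in CAY10603, against 0.316 in vehicle.

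The junction and adhesion genes went both ways in ACY1215. CLDN1, a claudin of the tight junction seal, had 927 CPM in ACY1215 and 522 CPM in CAY10603, against 465 CPM in vehicle, and 467 CPM in shHDAC6, against 518 CPM in shControl. ACY1215 alone was high, at a log2 fold over vehicle of 1.00 (95% counting interval 0.97 to 1.02). EPCAM, the epithelial adhesion molecule of carcinoma cells, had 29.4 CPM in ACY1215 and 65.3 CPM in CAY10603, against 58.5 CPM in vehicle, and 39.8 CPM in shHDAC6, against 61.0 CPM in shControl. It was the only one of the 28 members at least 1.5-fold lower in ACY1215 than in vehicle (log2 fold -0.99, 95% counting interval -1.08 to -0.90), and its lowest libraries were ACY1215 and shHDAC6. OCLN and TJP1, the tight junction strand and scaffold proteins, were within 1.5-fold, with OCLN at 57.5 CPM in ACY1215 against 47.2 CPM in vehicle and TJP1 at 153 CPM in ACY1215 against 149 CPM in vehicle. The claudins below 5 CPM were CLDN3, at 2.89 CPM in ACY1215 against 2.93 CPM in vehicle, CLDN7, at 0.990 CPM in ACY1215 against 1.87 CPM in vehicle, and CLDN4, with at most 1 count in any library.

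In the desmosome, DSP, the plakin that anchors keratin filaments, was at 189.7 CPM in ACY1215 and 140.2 CPM in CAY10603, against 112 CPM in vehicle, and 117 CPM in shHDAC6, against 141 CPM in shControl, a log2 fold of 0.76 between ACY1215 and vehicle (95% counting interval 0.71 to 0.81). PKP2, the plakophilin that links desmoplakin to the cadherins, was at 29.2 CPM in ACY1215 and 21.8 CPM in CAY10603, against 18.7 CPM in vehicle, and 19.1 CPM in shHDAC6, against 21.8 CPM in shControl (log2 fold over vehicle 0.64, 95% counting interval 0.52 to 0.77). DSG2, the main desmosomal cadherin here, was closer, with 221 CPM in ACY1215 against 202 CPM in vehicle and 264 CPM in shControl. JUP (plakoglobin) had a log2 fold of 0.37 in ACY1215 over vehicle and of -0.18 over shControl, while DSC2 and PKP3 lay below the level floor. DSC2 had 40 counts in ACY1215 and 9 in CAY10603, against 9 in vehicle, and 4 in shHDAC6, against 10 in shControl. PKP3 was at 0.876 CPM in ACY1215 against 1.08 CPM in vehicle.

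Sequences of the regions before a few of these start sites are shown because ZEB and SNAI factors are known to bind the E-box CACCTG in epithelial promoters, and ITGA2, ITGA6, CLDN1 and DSP were higher together in ACY1215. Each window runs from 250 bases before to 50 bases after a transcription start, read 5′ to 3′ along the gene's strand from RefSeq on GRCh38.p14, whereas the counts were made on hg19. The motif searched was CACCTG or its reverse complement CAGGTG, which covers both strands, and matches are in capitals. The ITGA2 window is chr5:52989102-52989401 on the plus strand, the ITGA6 window (the first of 2 listed starts) is chr2:172427086-172427385 on the plus strand, the CLDN1 window is chr3:190322397-190322696 on the minus strand and the DSP window is chr6:7541421-7541720 on the plus strand.
ITGA2 promoter: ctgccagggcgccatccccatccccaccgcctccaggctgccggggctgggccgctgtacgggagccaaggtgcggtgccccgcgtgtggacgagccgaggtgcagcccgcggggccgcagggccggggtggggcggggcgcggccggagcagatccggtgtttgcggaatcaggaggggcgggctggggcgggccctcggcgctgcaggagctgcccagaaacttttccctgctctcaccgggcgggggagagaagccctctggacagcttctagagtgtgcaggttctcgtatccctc
ITGA6 promoter: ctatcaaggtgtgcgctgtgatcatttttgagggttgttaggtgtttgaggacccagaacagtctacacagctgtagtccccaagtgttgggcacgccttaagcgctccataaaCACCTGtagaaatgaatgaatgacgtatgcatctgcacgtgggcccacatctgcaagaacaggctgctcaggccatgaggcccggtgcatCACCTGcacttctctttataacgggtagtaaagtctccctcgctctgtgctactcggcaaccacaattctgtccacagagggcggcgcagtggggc
CLDN1 promoter: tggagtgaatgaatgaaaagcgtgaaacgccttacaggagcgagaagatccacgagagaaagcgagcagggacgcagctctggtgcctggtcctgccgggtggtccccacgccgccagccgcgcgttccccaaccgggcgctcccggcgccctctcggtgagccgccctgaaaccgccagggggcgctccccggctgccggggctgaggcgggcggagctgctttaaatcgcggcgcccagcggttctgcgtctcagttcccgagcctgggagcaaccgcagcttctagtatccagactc
DSP promoter: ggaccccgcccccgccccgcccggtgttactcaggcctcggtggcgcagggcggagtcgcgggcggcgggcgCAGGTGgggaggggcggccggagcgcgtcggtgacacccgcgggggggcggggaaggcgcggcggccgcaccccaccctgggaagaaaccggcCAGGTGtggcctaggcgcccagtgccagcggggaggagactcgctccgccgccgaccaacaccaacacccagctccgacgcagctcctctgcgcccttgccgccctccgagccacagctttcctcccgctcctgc
The ITGA6 window held 2 matches, 136 and 46 bases before the start, and the DSP window held 2, 178 and 85 bases before it. The ITGA2 and CLDN1 windows held 0, as did the window of the other ITGA6 start. RefSeq windows were at hand for 25 of the 45 members, in 47 windows, of which 14 (29.8%) held a match, against 7231 of 35116 windows of all genes (20.6%). Of the 13 members at least 1.5-fold higher in ACY1215, 9 had a window and 2 (ITGA6 and DSP) held a match. A match describes letters in the window and is not a binding site.

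The catenins and keratins differed by less than 1.5-fold between ACY1215 and vehicle. CTNNB1, beta-catenin, the armadillo protein of the junction and of WNT signalling, had 709 CPM in ACY1215 and 807 CPM in CAY10603, against 847 CPM in vehicle, and 752 CPM in shHDAC6, against 751 CPM in shControl, a log2 fold over vehicle of -0.26. CTNNA1, which links the junction to actin, and CTNND1, which keeps cadherins at the membrane, had log2 folds of -0.07 and 0.06. KRT18 read 253 CPM in ACY1215 and 224 CPM in CAY10603, against 209 CPM in vehicle, and 273 CPM in shHDAC6, against 288 CPM in shControl. KRT8 and KRT18, which form 1 filament, kept a FPKM ratio of 0.273 in ACY1215 and 0.257 in CAY10603, against 0.265 in vehicle, and of 0.266 in shHDAC6, against 0.289 in shControl. KRT80 was at 10.5 CPM in ACY1215 against 7.91 CPM in vehicle, and KRT7 was under 1 CPM in every library. KRT8, KRT18 and OCLN have near-identical copies elsewhere in the genome, so their counts may be split between rows.

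Of the mesenchymal genes above the floor, VIM and CDH2 were at least 1.5-fold higher in ACY1215 than in vehicle, while S100A4 and ZEB1 were within 1.5-fold. VIM had 2566 CPM in ACY1215 and 2115 CPM in CAY10603, against 1598 CPM in vehicle, and 2107 CPM in shHDAC6, against 2410.1 CPM in shControl. Vehicle was the lowest of the 5 libraries and ACY1215 the highest, a log2 fold of 0.68, but shControl was close to ACY1215. CDH2 had 6.80 CPM in ACY1215 and 5.22 CPM in CAY10603, against 4.23 CPM in vehicle, and 5.03 CPM in shHDAC6, against 4.34 CPM in shControl, a log2 fold over vehicle of 0.68 (95% counting interval 0.43 to 0.95). S100A4, a calcium-binding protein used as a mesenchymal marker, had 11.6 CPM in ACY1215 and 18.1 CPM in CAY10603, against 16.8 CPM in vehicle, and 18.4 CPM in shHDAC6, against 17.9 CPM in shControl. ACY1215 alone was low, at a log2 fold over vehicle of -0.53 (95% counting interval -0.69 to -0.38), short of 1.5-fold. ZEB1 had 122 CPM in ACY1215 and 135 CPM in CAY10603, against 129 CPM in vehicle, and 105 CPM in shHDAC6, against 123 CPM in shControl, and all 5 libraries were within 1.5-fold of each other. TWIST1, a factor of the same programme below the floor, had 4.78 CPM in ACY1215 and 5.31 CPM in CAY10603, against 5.11 CPM in vehicle, and 4.52 CPM in shHDAC6, against 4.45 CPM in shControl.

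Counted over the list, 13 of the 28 members were at least 1.5-fold higher in ACY1215 than in vehicle, where 6.3% of all genes were, 1 was lower, where 7.39% were, and 23 had a log2 fold above 0, where 51.7% did. The median log2 fold over the 28 was 0.43. Without the integrins, 5 of 18 were higher (CLDN1, DSP, VIM, CDH2 and PKP2) and the median was 0.28. Against vehicle, the members that were higher thus came from both sides, 2 mesenchymal (VIM, CDH2) and 3 of the junctions (CLDN1, DSP, PKP2) beside the integrins. Of these 5, only CLDN1 and CDH2 were also past 1.5-fold over shControl, and CDH2 reached the floor only through ACY1215. Over shControl, the log2 fold was 0.09 for VIM, 0.42 for DSP and 0.42 for PKP2. Fibroblast markers were higher in sum with either inhibitor, at 43.1 CPM in ACY1215 and 39.3 CPM in CAY10603, against 28.8 CPM in vehicle. Most of it was COL1A2 (31.5 CPM in ACY1215 and 33.5 CPM in CAY10603, against 22.5 CPM in vehicle). DCN and LUM were under 1 CPM in every library. In CAY10603 no member was past 1.5-fold over vehicle, and the part of these markers in the result was not tested. With library totals alone as the scale, the median log2 fold of all genes in this pair was -0.10 in place of 0.02, and 8 members were at least 1.5-fold higher.

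**Figure D2:**
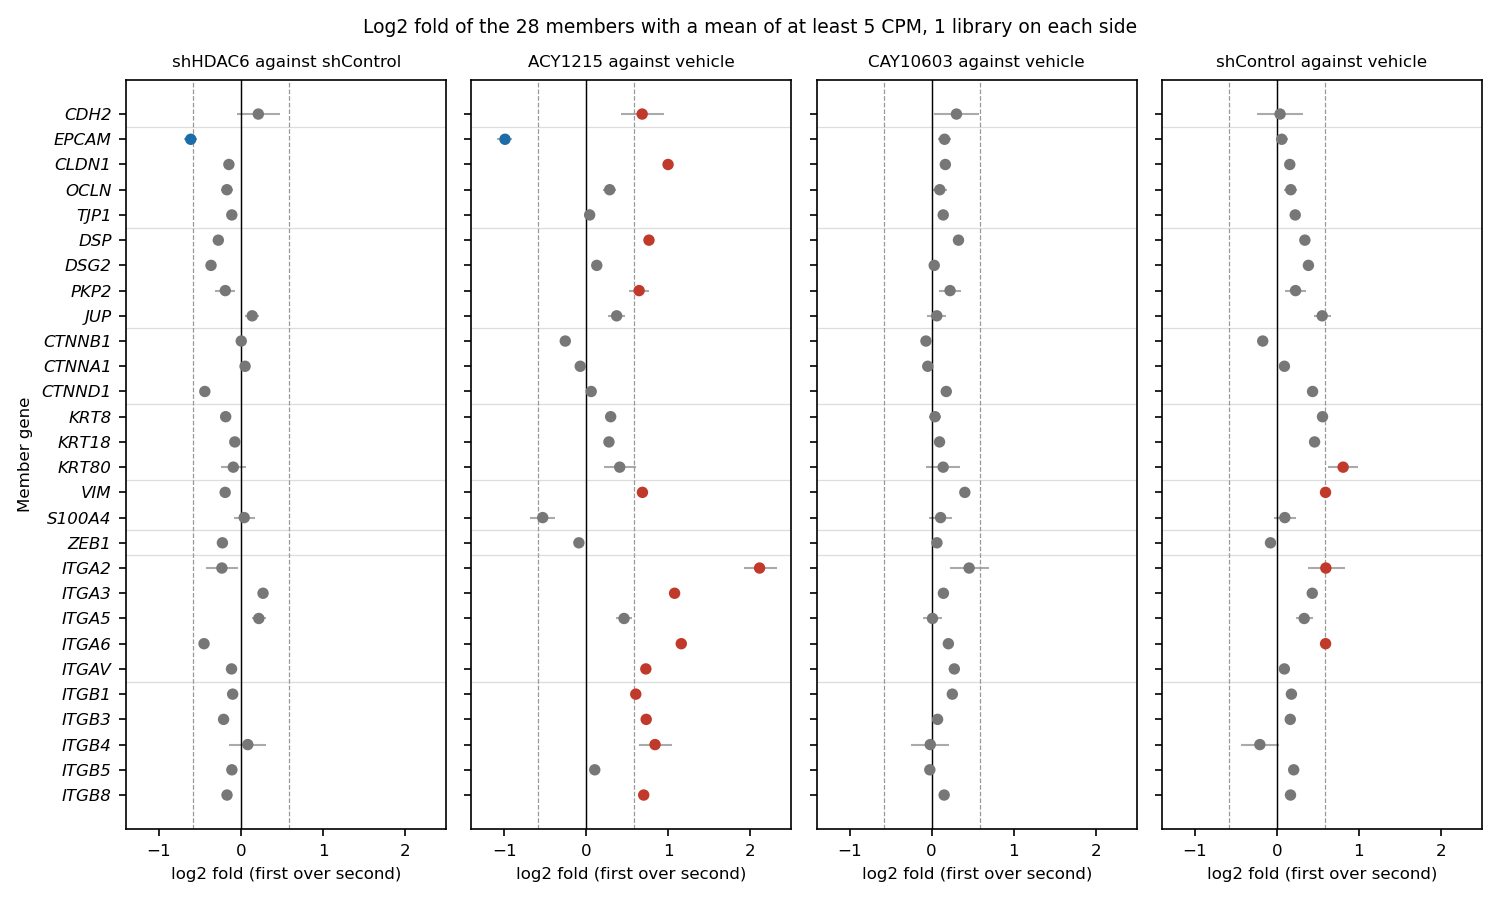
Log2 fold of the 28 members that averaged 5 CPM or more, in 4 pairs of libraries, with dashed lines at 1.5-fold and bars for the 95% counting interval, members past 1.5-fold higher in red and lower in blue. ACY1215 against vehicle has 13 members in red and EPCAM in blue, shHDAC6 against shControl has EPCAM in blue alone, CAY10603 against vehicle has none coloured, and shControl against vehicle has 4 in red.

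The 2 control libraries differed from each other in some of these genes. Against vehicle, shControl had 4 of the 28 members at least 1.5-fold higher (KRT80, ITGA2, ITGA6 and VIM), where 3.92% of all genes were, and 0 lower, where 3.16% were, with a median log2 fold of 0.21 over members and 0.07 over all genes, and 25 of the 28 were above 0, where 61.2% of all genes were. The log2 folds of shControl over vehicle were 0.81 for KRT80, 0.60 for ITGA2, 0.59 for ITGA6 and 0.59 for VIM. Set against shControl, ACY1215 had 6 members at least 1.5-fold higher, where 4.63% of all genes were, and 2 lower (EPCAM and S100A4), where 6.82% were, and 15 of the 28 were above 0, where 41.7% of all genes were. The 6 were ITGA2 (log2 fold 1.51), ITGB4 (1.04), CLDN1 (0.84), ITGA3 (0.64), CDH2 (0.64) and ITGAV (0.63). All 6 were also past 1.5-fold over vehicle, so they were higher than both controls, as 2.56% of all genes were. EPCAM (-1.05 against shControl) was lower than both, as 3.73% of all genes were. Of the 6, CDH2 reached the floor only through its ACY1215 value. VIM lost nearly all of its difference, at 0.09 over shControl. For the integrins the median log2 fold of ACY1215 over shControl was 0.56, and for the other 18 members it was -0.17. ACY1215 was the highest of the 5 libraries for 8 of the 10 integrins and for 14 of all 28 members, where it was highest for 25.3% of all genes.

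**Figure D3:**
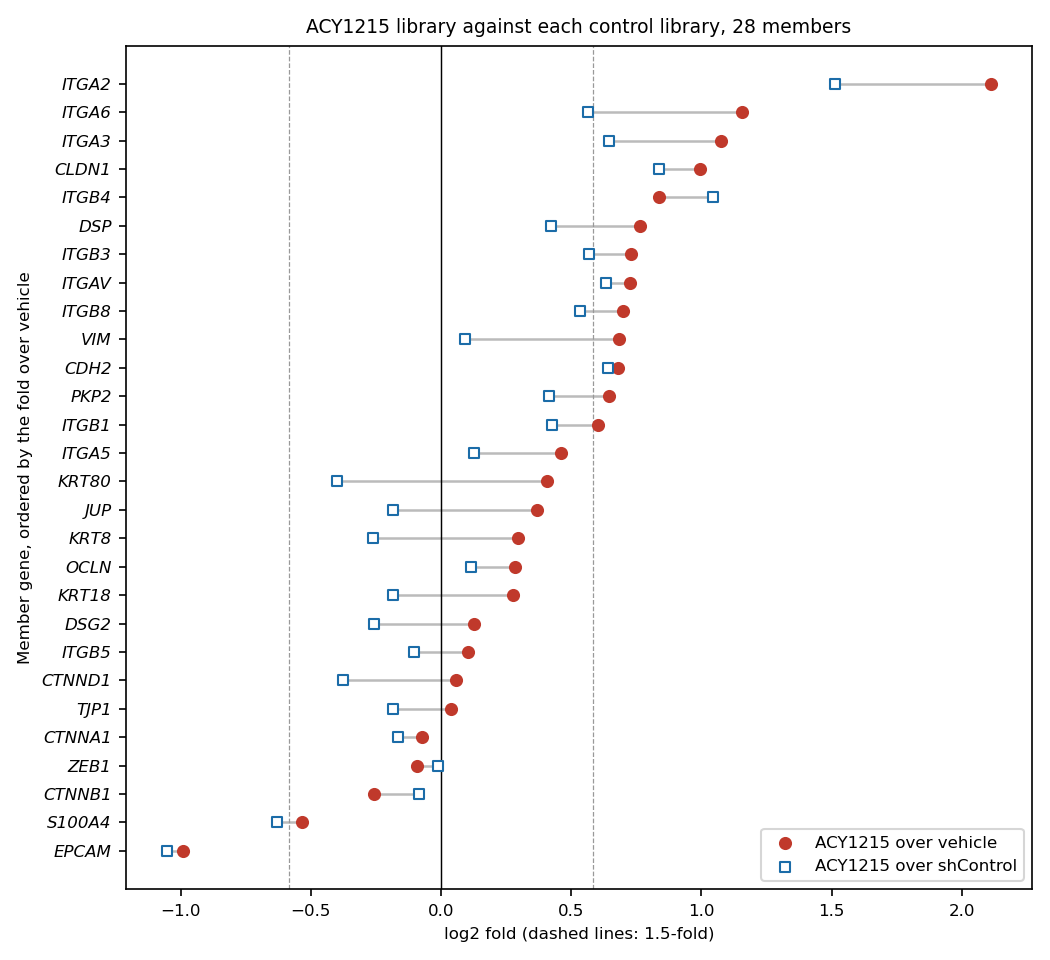
Log2 fold of ACY1215 over vehicle (red circles) and over shControl (open squares) for the 28 members, ordered by the fold over vehicle, with dashed lines at 1.5-fold. ITGA2, ITGB4, CLDN1, ITGA3, CDH2 and ITGAV lie past 1.5-fold with both controls, and EPCAM lies below it with both. With shControl, 25 of the 28 members lie further left, ITGA2, ITGA6, VIM and the keratins among them.

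In the knockdown pair few of these genes were past 1.5-fold. In shHDAC6 against shControl, 0 of 28 members were at least 1.5-fold higher, where 2.58% of all genes were, and 1 was lower, where 2.52% of all genes were. That member was EPCAM, with the values above, at a log2 fold of -0.61 (95% counting interval -0.69 to -0.54) in shHDAC6 over shControl and of -0.55 over vehicle, just short of 1.5-fold. The median log2 fold of the members was -0.13, against -0.02 over all genes, and 8 of the 28 were above 0, where 47.1% of all genes were. The integrins had a median of -0.11, with none past 1.5-fold. ITGA6 and ITGA3 were the integrins farthest from 0 in this pair, ITGA6 lower (log2 fold -0.45) and ITGA3 higher (0.27, 95% counting interval 0.23 to 0.30) in shHDAC6. CTNND1 (-0.44), DSG2 (-0.37), DSP (-0.28) and ZEB1 (-0.23) also had log2 folds below 0. Set against vehicle in place of shControl, shHDAC6 had ITGA3 (0.70), KRT80 (0.71) and JUP (0.69) at least 1.5-fold higher, where 3.65% of all genes were, and 0 members 1.5-fold lower, where 2.71% were. The direction of the list turned with this control: 19 of the 28 were above 0, where 57.1% of all genes were, with a median of 0.08 over members, 0.08 over the integrins and 0.05 over all genes.

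Of the 17 members below the floor, KRT19 and ZEB2 were the ones at least 1.5-fold apart in shHDAC6 against shControl with a counting interval that left out 0. KRT19, a keratin of simple and ductal epithelia, had 98 counts in shHDAC6, 316 in shControl, 136 in ACY1215, 91 in CAY10603 and 102 in vehicle, with shControl alone high (log2 fold of shHDAC6 over shControl -1.57, 95% counting interval -1.93 to -1.25). Over vehicle, the log2 fold of shHDAC6 was -0.26. ZEB2 had a log2 fold of -0.67 over shControl (95% counting interval -0.98 to -0.37) and of -0.63 over vehicle, with shHDAC6 the lowest of the 5 libraries. GRHL2 had 9 counts in shHDAC6, 4 in shControl, 8 in ACY1215, 34 in CAY10603 and 28 in vehicle, so that it was higher in CAY10603 and vehicle than in the other 3 libraries.

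In the library of CAY10603, the other HDAC6 inhibitor, every one of the 28 members was within 1.5-fold of vehicle. No member was higher or lower by that measure, where 0.382% of all genes were higher and 0.652% lower, so few genes of any kind passed in this pair. The folds ran from -0.07 for CTNNB1 to 0.46 for ITGA2 (95% counting interval 0.23 to 0.69), with a median of 0.14 over members and 0.02 over all genes, and 24 of 28 were above 0, where 55.9% of all genes were. After ITGA2 the largest were VIM (0.40), DSP (0.33), CDH2 (0.30), ITGAV (0.28) and ITGB1 (0.25). The integrin median was 0.15 in CAY10603 over vehicle. Set against shControl, CAY10603 had 0 members at least 1.5-fold higher, where 2.55% of all genes were, and 1 lower (KRT80, log2 fold -0.67), where 2.91% were. The direction of the list turned here too, with 9 of 28 above 0, where 42.3% of all genes were, and a median of -0.09 over members, -0.12 over the integrins and -0.05 over all genes. EPCAM had a log2 fold of 0.16, above 0, where ACY1215 and shHDAC6 had it below. Both inhibitors share their vehicle library, so their folds are not independent, and with unknown doses the sizes are given side by side and not compared.

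**Figure D4:**
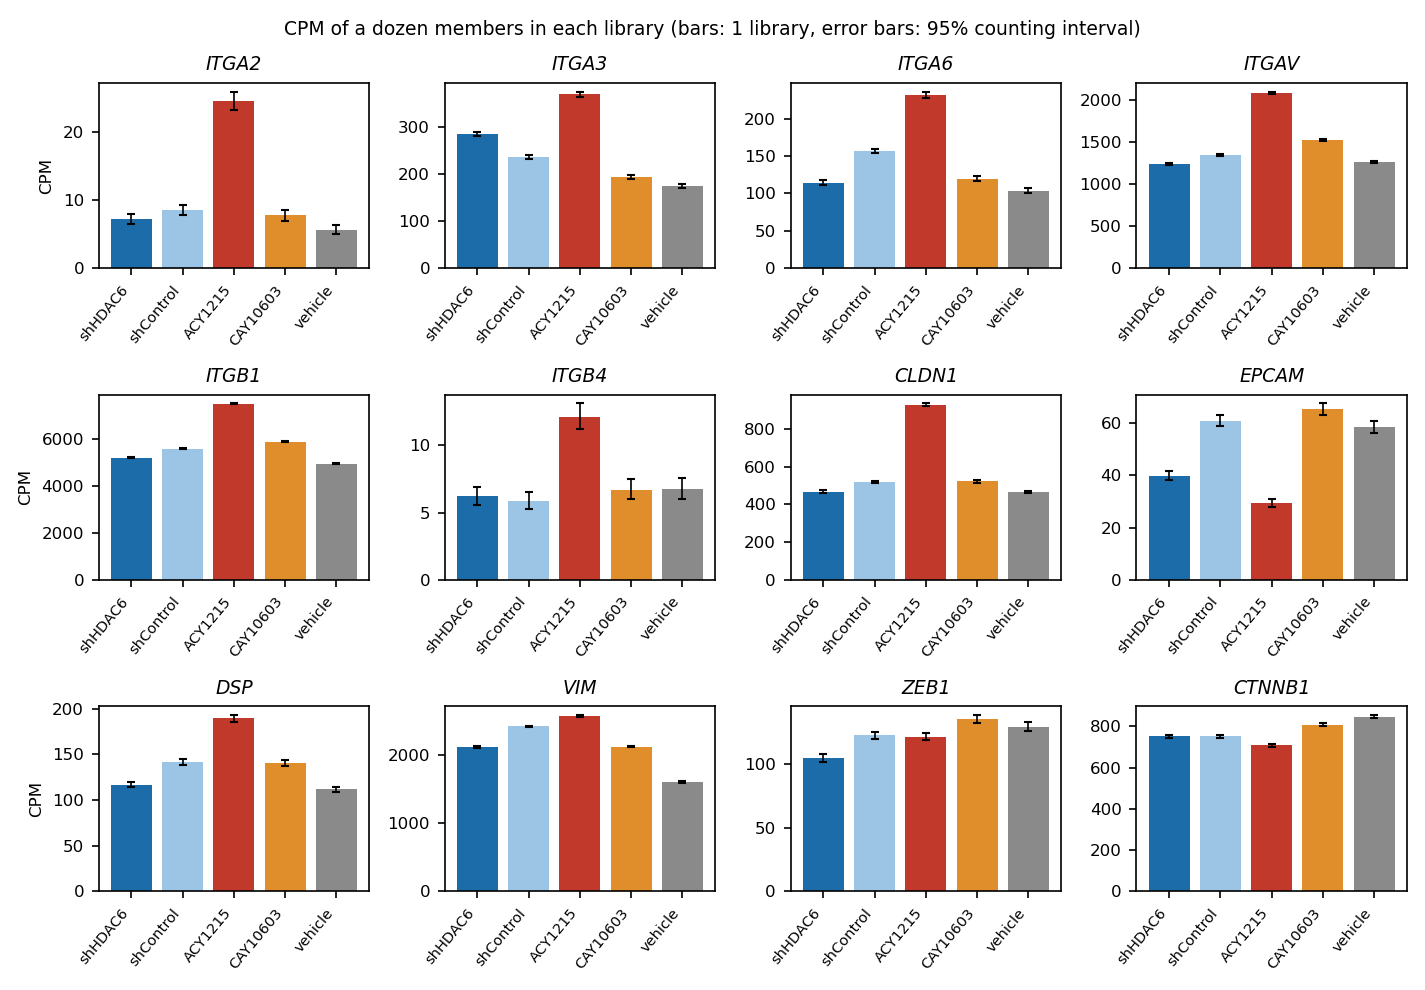
CPM of 12 members in each library (bars start at 0, 1 library each, error bars for the 95% counting interval). ACY1215 is the highest bar for ITGA2, ITGA3, ITGA6, ITGAV, ITGB1, ITGB4, CLDN1, DSP and VIM and the lowest for EPCAM, whereas ZEB1 and CTNNB1 vary little.

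Taking the 3 interventions as 1 group (repressed HDAC6, n = 3) against the 2 control libraries, as the labels do, no member passed. In edgeR's quasi-likelihood test with hairpin or drug experiment as a covariate, 0 of 13449 genes reached an adjusted p of 0.05 (0% called, 100 genes or 0.744% at an unadjusted p under 0.05), and of the 36 members tested 0 passed and 0 had an unadjusted p under 0.05. DESeq2 called 0 genes (112 unadjusted) and limma-voom 0 (122 unadjusted). ITGA3 had the lowest p, with a log2 fold of 0.50 ± 0.28 (SE) for repressed HDAC6 over control and an unadjusted edgeR p of 0.122. The fit gave ITGA2 0.73 ± 0.61, EPCAM -0.44 ± 0.32 and CLDN1 0.30 ± 0.30 on the same scale, and none of these differences was larger than the spread between the libraries by that test. The 2 residual degrees of freedom of the fit come from differences between the interventions, which are not replicates. That spread is therefore not a replicate spread, and the test cannot say whether any 1 intervention had an effect. An edgeR fit with an interaction term set the drug effect against the hairpin effect. It had 1 residual degree of freedom, from ACY1215 and CAY10603, which are different drugs and not replicates. Whether these effects differ could therefore not be tested against a replicate spread.

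The wider lists around the members were counted in the same way, with the same shares of all genes to read them against: in ACY1215, 6.3% were higher and 7.39% lower than in vehicle, and 4.63% higher and 6.82% lower than in shControl. Of 16 further integrin subunits, 4 were above the floor, and 3 of these were at least 1.5-fold higher in ACY1215 than in vehicle and none lower. They were ITGA1, a collagen receptor subunit (log2 fold 1.43), ITGB6, an epithelial subunit that pairs with ITGAV (1.12), and ITGA7, a laminin receptor subunit (0.82). With shControl in place of vehicle, 3 of the 4 were higher as well. Of 33 focal adhesion genes, the proteins that tie integrins to actin, 26 were above the floor, 3 were higher and 1 lower, with PXN (paxillin, 0.78) and ZYX (zyxin, 0.65) higher, KANK2 (-0.60) lower and a median of 0.22. With shControl in place of vehicle, 1 was higher and 2 lower, with a median of -0.08. Of 79 further epithelial and junction genes, 24 were above the floor, 2 were higher and 3 lower in ACY1215, with a median of 0.18. TJP3, a tight junction scaffold (1.16), and GRHL1, a relative of GRHL2 (0.78), were the 2 that were higher.

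Of 41 further mesenchymal genes, 25 were above the floor, 10 were at least 1.5-fold higher in ACY1215 than in vehicle (6.3% of all genes) and none lower (7.39% of all genes), with a median of 0.37. Of the 10, ANKRD1 and CTGF averaged 5.57 and 5.10 CPM over the libraries and reached the floor only through ACY1215. ANKRD1, a target of the YAP pathway, had 151 counts in shHDAC6, 382 in shControl, 630 in ACY1215, 153 in CAY10603 and 138 in vehicle (log2 fold of ACY1215 over vehicle 1.97). LOXL2, which cross-links collagen, was at 119 CPM in ACY1215, against 51.2 CPM in vehicle and 75.9 CPM in shControl. CD44, the hyaluronan receptor, was at 128 CPM in ACY1215, against 58.0 CPM in vehicle and 99.9 CPM in shControl. Set against shControl, ACY1215 had 5 of these 25 genes higher (4.63% of all genes) and 4 lower (6.82%), with a median of 0.03, and shControl itself had 6 higher (3.92%) and 0 lower (3.16%) than vehicle. In shHDAC6 against shControl the same list had 3 genes lower (2.52% of all genes) and none higher (2.58%), with a median of -0.24. The 3 were ANKRD1 (-1.22), TGFBI (-0.72) and CALD1 (-0.65). Against vehicle, shHDAC6 had none of the 25 past 1.5-fold, 19 above 0 and a median of 0.22, so the direction turned. ANKRD1 was thus high in ACY1215 and shControl and low in shHDAC6, CAY10603 and vehicle. Fibronectin, FN1, lay below the floor, at 2.44 CPM in ACY1215 and 1.30 CPM in CAY10603, against 0.617 CPM in vehicle, and 0.438 CPM in shHDAC6, against 0.142 CPM in shControl. In CAY10603 against vehicle, none of these 4 lists had a gene 1.5-fold higher or lower.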

How the data were processed

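The 5 TOV21G libraries were made from total RNA with a kit that keeps strand, per the labels' protocols. Expected counts of each gene were deposited in whole numbers under the heading count, per the file headers, beside the authors' FPKM. The submitters' processing notes name RSEM 1.2.3, edgeR without a version, and hg19. Aligner, annotation and strand setting are unknown from the sources used here, so reads of a gene and an antisense partner may not be told apart. DMSO in a column header was taken to mean vehicle. From 28442 gene rows, 2 blank rows having been left out, counts were used as deposited, with no rounding needed.

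The 3 interventions were tested against the 2 controls with edgeR 4.0.16 in R 4.3.3 (TMM, robust quasi-likelihood F test, experiment type as covariate, a minimum of 1 CPM in 2 libraries, Benjamini-Hochberg adjustment over all genes at 0.05, 2 residual degrees of freedom), and the script was tested on simulated data. DESeq2 1.42.0 and limma 3.58.1 were alternatives. No label says that cultures were repeated, so p-values measure only the spread between these libraries. For single pairs, log2 folds came from CPM on the TMM scale (prior count 2), over genes that averaged 5 CPM or more, and were counted at 1.5-fold. Intervals (95%, exact binomial for ratios) cover counting error only.

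The members and the gene lists were chosen with earlier results of these data known. Values in every library were printed for members at least 1.5-fold apart in a pair, for cadherins, mesenchymal markers and their transcription factors, and for the 5 highest by FPKM. Of the other lists, up to 3 genes per list and pair were named, those farthest from 0 among genes at least 1.5-fold apart, of which 1 is not reported here. Further values were chosen after they were seen, those of KRT19 and GRHL2 among them.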

Additional observations from a re-analysis of the deposited data

Results flagged for a closer look

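DSP, the desmosomal plakin, stood on opposite sides of its control in the knockdown and in both drug libraries. Its log2 fold was -0.28 in shHDAC6 against shControl, 0.76 in ACY1215 against vehicle and 0.33 in CAY10603 against vehicle, each at least 1.2-fold. It is listed because the knockdown library lay on one side of its control and both drug libraries on the other at that size. Other members shared these signs with at least 1 of the 3 folds under 1.2-fold, so the signs are not particular to DSP. The drug folds share 1 vehicle library, and shControl itself was above vehicle by a log2 fold of 0.34. With the controls exchanged, the opposite sides were not kept. DSP had a log2 fold of 0.06 in shHDAC6 over vehicle, and over shControl of 0.42 in ACY1215 and -0.01 in CAY10603. With 1 library per treatment the opposite directions of the pairs were not tested. In edgeR's interaction of experiment type with HDAC6 status, DSP had a log2 difference of 0.80 between the drug and the hairpin effect. The only residual of that fit lies between the different inhibitors, so it gives no test against replicates.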

How the results depend on the processing

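Counts of members at least 1.5-fold apart depended mostly on the control library, the scale and the floor. For ACY1215 against vehicle, 13 members were higher, 13 with RLE or upper quartile scaling or a prior count of 0.5, 14 with a floor of 1 CPM, 17 with no floor, 10 against the mean of both controls, 8 with total counts or the authors' FPKM and 6 against shControl or against both controls at once. The 1 lower member became 2 with total counts, a floor of 1 CPM, the authors' FPKM or shControl as control, and 4 with no floor. For shHDAC6 against shControl, 0 members were higher, but 2 with no floor and 3 against vehicle, and the 1 lower member (EPCAM) became 0 with total counts, against vehicle or against the mean of both controls, 3 with a floor of 1 CPM and 4 with no floor. For CAY10603 against vehicle, 0 members were higher and 0 lower, but 2 and 2 with no floor, and 1 lower against shControl. Of 75 folds of named members, 30 changed sign with the other control library, 16 with the mean of both controls, 5 with FPKM and 2 with total counts. None of these was among the 15 folds past 1.5-fold, of which 6 with total counts, 8 with the other control, 4 with the mean of both controls and 5 with FPKM came below 1.5-fold. The cause was not tested beyond what these settings change. In the pooled edgeR test, leaving out 1 library at a time gave 0 to 4 genes passing, 4 without ACY1215 and 3 without vehicle, and 0 members in each case, with at most 2 members at an unadjusted p under 0.05. The fit with an interaction by experiment type was added after seeing the data, as was the call against both controls. No paired analysis was possible because the labels carry no replicate numbers, and the experiment type, which the labels do give, was a covariate in the pooled test.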

Other observations

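Among the focal adhesion genes in shHDAC6 against shControl, DAB2, an endocytic adaptor that acts on integrins, was lower by a log2 fold of -0.66 and CAV2, a caveolin, by -0.63. They were the 2 of 26 such genes above the floor that were at least 1.5-fold lower, where 2.52% of all genes were, and the median of those 26 was -0.04. Against vehicle, shHDAC6 had a log2 fold of -0.05 for DAB2 and -0.41 for CAV2, with 0 of the 26 lower, 2 higher and a median of 0.29.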
